A study of Danio rerio with 17 samples.

Results

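The segment next to the animal cap, segment B, was compared with the animal cap itself, segment A, in sliced oocytes of zebrafish (Danio rerio). The comparison took the libraries that the labels assign to B and to A, which were 7 of the 17 libraries of the series: 3 of segment B, from oocytes 1, 2 and 4, and 4 of segment A, from oocytes 1, 2, 3 and 4. Each library held total RNA of 1 segment of 1 oocyte, depleted of ribosomal RNA, and segment B of oocyte 3 was not analysed here. The labels name no strain, oocyte stage, genotype or treatment, so position is the labelled difference between B and A, which are paired inside oocytes 1, 2 and 4. Any follicle cells still attached to an oocyte would be part of its slices, and in such slices a smaller share of a compartment and less RNA in it cannot be told apart.

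The fish oocyte stores the messenger RNAs that run the first cell cycles of the embryo. Many of them take up a place along the animal-vegetal axis before fertilization. The animal end forms the blastodisc and houses the nucleus late in oogenesis, and its RNAs include those of the maternal genome activator pou5f3 and the polyadenylation factor cpeb1b. RNAs of the dorsal axis and many germ plasm RNAs gather at the vegetal end, and germ plasm RNAs pass through the Balbiani body of the young oocyte on the way. The step from A to B asks how far the animal cap differs from the layer beneath it.

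Reads in genes numbered 7986113, 23672322 and 22369419 in segment B of oocytes 1, 2 and 4, and from 9319365 to 20473249 in the 4 libraries of segment A. At these depths 3 reads equalled 0.130 to 0.366 CPM in B and 0.155 to 0.315 CPM in A, where CPM stands for the usual depth-scaled read count, here with library sizes corrected by trimmed means of M values (TMM). Between 9860 and 11048 genes had a read in the B libraries, against 9956 to 10637 in the A libraries. Spike-in RNA was nearly absent from oocyte 1, at 0.00119% of the reads in B and 0.00120% in A. In oocyte 2 it made up 0.640% in B and 0.772% in A, and in oocyte 4 it made up 0.370% in B and 0.185% in A, so it was lower in B in oocyte 2 and higher in B in oocyte 4. Of 10 oocyte markers with a gene entry all 10 were tested, and their summed level was 4319 to 5005 CPM in B and 4417 to 5065 CPM in A. The sum hides the marker figla, at a mean of 27.8 CPM, whose fitted log2 fold change of B against A was -7.12. It is among the limma-voom calls counted below and was not called in the main test. Of 25 follicle cell markers with an entry 10 were tested, with a summed level of 184 to 402 CPM in B and 198 to 525 CPM in A, and 14 had 0 reads in all 7 libraries. Of 10 blood cell markers only coro1a was tested, at 13.5, 0 and 15.3 CPM in B and 0 CPM in each A library, and the other 9 had 0 reads.

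The animal cap and the layer beneath it were about as alike as oocytes were to each other. Abundant RNAs were taken as the 2645 genes whose mean over the 7 libraries reached 100 CPM, and they held 73.7% to 77.6% of each library. Inside an oocyte, log2 CPM of B and A correlated with Pearson r of 0.738, 0.793 and 0.774 in oocytes 1, 2 and 4, across these genes. Segment B libraries correlated with A libraries of other oocytes at 0.686 to 0.783 (9 pairs), with each other at 0.752 to 0.771 (3 pairs), and A libraries correlated with each other at 0.672 to 0.811 (6 pairs). Pairs of B with A from 1 oocyte lay inside the range of pairs from 1 segment. Genes are not independent replicates, and pairs share libraries, so these coefficients describe the libraries and were not tested.

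**Figure D1:**
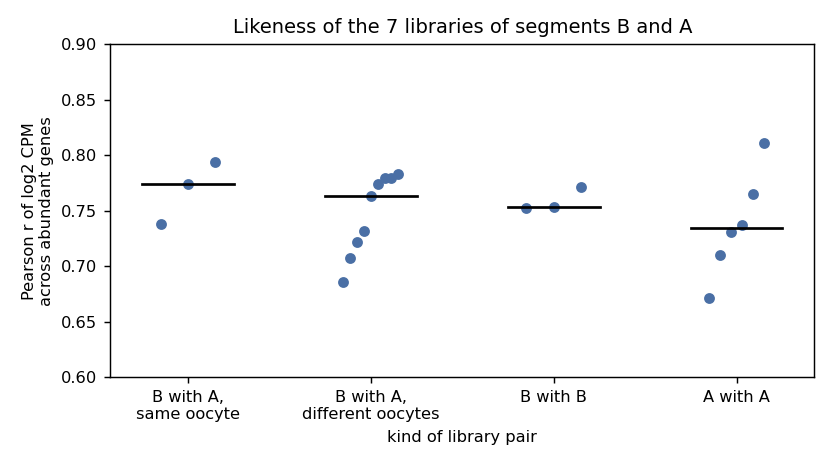
Pearson r of log2 CPM across 2645 abundant genes for every pair among the 3 libraries of segment B and the 4 of segment A; each point is 1 pair, the bar is the median of its kind, and the vertical axis starts at 0.6. The 3 pairs of B with A from the same oocyte lie between 0.738 and 0.793, inside the range of 0.672 to 0.811 among A libraries.

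Most abundant RNAs stayed within a factor of 2 inside each oocyte. The ratio of B to A was within 2-fold for 84.2%, 86.1% and 87.1% of them in oocytes 1, 2 and 4, and the SD of the log2 ratio across genes was 0.75, 0.70 and 0.70. With the error taken into account, the 95% interval of the difference lay wholly within 2-fold for 1310 of 2645 abundant genes (49.5%). The share was 35.2% of 1920 genes at 100 to 300 CPM, 87.3% of 668 genes at 300 to 1000 CPM and 91.2% of 57 genes at 1000 CPM or more. Below 100 CPM the libraries were too uneven for such a statement, with 15 of 3064 genes at 30 to 100 CPM and 0 of 2788 at 10 to 30 CPM. The median standard error of the log2 difference was 1.87 in the group at 10 to 30 CPM, and 0.23 in the group at 1000 CPM or more. Without oocyte 1, 789 of the abundant genes had such an interval.

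**Figure D2:**
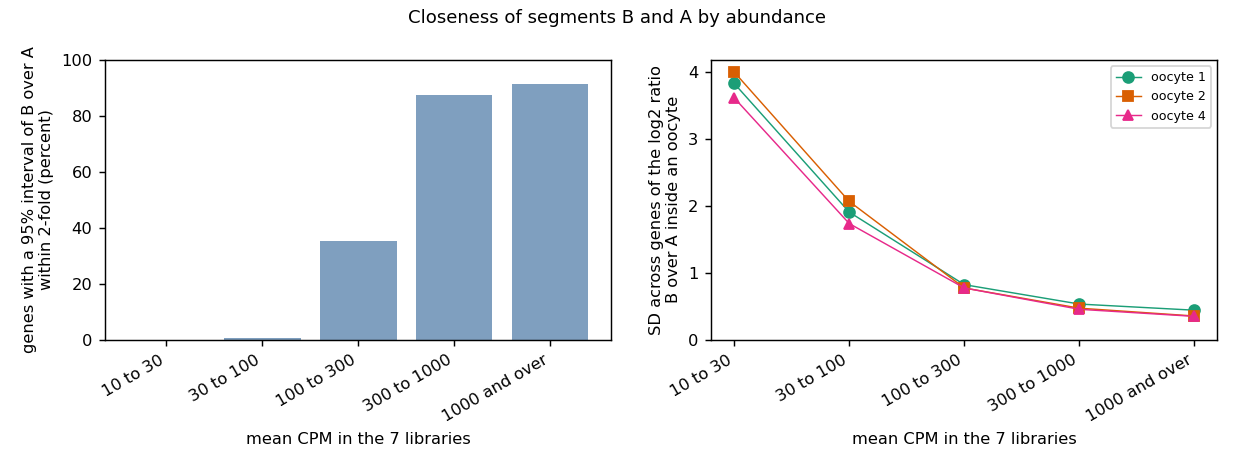
Left, percent of genes whose 95% interval of the fold of segment B over segment A lies within 2-fold, by mean CPM in the 7 libraries; right, SD across genes of the log2 ratio of B over A inside oocytes 1, 2 and 4. The share climbs to 91.2% and the SD narrows to between 0.35 and 0.44 at 1000 CPM or more.

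Among the steps along the axis, B against A had the smallest number of calls in the main fit, 1. Alternative settings were run for B against A only. A gene was called at a Benjamini-Hochberg adjusted p under 0.05 in the quasi-likelihood test of edgeR, fitted on all 17 libraries with 1 coefficient per segment. Of 12549 genes tested, 1 (0.00797%) was called between B and A, and it was higher in B. The same fit called 6 genes between C and B, 13 between D and C, 22 between E and D, and 240 between E and A. Over the 2673 genes that averaged 100 CPM or more across all 17 libraries, the interval lay within 2-fold for 49.6% between B and A, and for 47.2%, 43.4% and 36.7% at the next 3 steps. It was 38.3% between E and A. This share depends on the width of the intervals as well as on the differences. Over these genes the median standard error was 0.400 between E and D, and 0.374 to 0.375 in the other 4 comparisons. Genes with an unadjusted p under 0.05 ranked the steps otherwise, with 602 for B against A and 627, 711 and 508 at the next 3 steps. These comparisons share libraries, and the differences between their counts were not tested. A low count does not show likeness. In simulated counts the test called 8 of 100 genes at 100 CPM or more whose B and A differed by 1 on the log2 scale. Those counts held 100 further genes changed by 2 and drew every library independently, so the share in the real libraries may differ. With the oocyte as a block, 4 genes (0.0319%) were called between B and A, all 4 higher in B. No gene was called lower in B by edgeR in either fit (0 of 12549, 0.0%). Without the block 602 genes (4.80%) had an unadjusted p under 0.05 in either direction. Their share varied with abundance, with 34 of 2788 genes at 10 to 30 CPM and 69 of 1920 at 100 to 300 CPM. The pooled share is therefore not read against chance.

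The count was sensitive to the tool. DESeq2 called 428 genes (3.41%), of which 160 were higher (1.28%) and 268 lower (2.14%) in B. Its calls include coro1a, at a log2 fold change of 22.1 and an adjusted p of 4.88e-05. That gene was at 13.5, 0 and 15.3 CPM in B and 0 CPM in each A library, so a DESeq2 call can rest on scattered reads. How many of the 428 do so was not counted, and the abundant RNAs vat1 and si:ch211-241j12.3 were among them. limma-voom called 9 (0.0717%), of which 5 were higher (0.0398%) and 4 lower (0.0319%). The scaling mattered as well, because counts are divided by the authors' factors, and these were smaller than TMM-scaled library sizes in B (log2 of -0.52 to -0.44) and slightly larger in A (log2 of 0.04 to 0.08). Values of B were therefore higher than with TMM. Those factors moved the median over the tested genes to 0.49 on the log2 scale and gave 10 calls (0.0797%), all 10 higher in B. With the block and those factors there were 127 calls (1.01%), of which 126 were higher (1.0%) and 1 lower in B. TMM scaling sets the median change near 0 (-0.03), so every difference given here is relative to the bulk of the RNAs.

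The gene called in the main test was ca15b (ENSDARG00000040510), a carbonic anhydrase gene whose RNA is a known germ plasm component in zebrafish. Its level was 102, 108 and 232 CPM in segment B of oocytes 1, 2 and 4, against 20.9, 11.6, 19.3 and 63.0 CPM in segment A of oocytes 1, 2, 3 and 4. Every B library lay above every A library, and oocyte 4 was the highest of its group in B and in A. The means were 147 ± 73.3 CPM in B (SD, n = 3) and 28.7 ± 23.2 CPM in A (SD, n = 4), and the fitted log2 difference, 2.36 ± 0.42 (SE), had an adjusted p of 0.00899 in edgeR. Further along the axis the mean was 224 CPM in C, 262 CPM in D and 333 CPM in E, so the widest gap in fold between neighbours was the one between B and A. The log2 ratio of B to A was 2.28, 3.21 and 1.88 in oocytes 1, 2 and 4.

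The direction of ca15b was the same under each alternative run, but its call was not. The edgeR adjusted p was 6.08e-06 with the oocyte as a block, and DESeq2 gave 2.02e-05. It was 0.000364 without B of oocyte 1, 0.000240 without B of oocyte 2, and 1.20e-05 without A of oocyte 4, where the log2 difference was 3.10. It was 0.124, 0.0722 and 0.168 without segment A of oocyte 1, 2 or 3, 0.0510 when B of oocyte 4 was left out, and 0.0820 when all of oocyte 1 was. Fitted on the 7 libraries alone it was 1.000, with a log2 fold change of 2.36, and limma-voom gave an adjusted p of 0.502. Its mean over the 7 libraries was 79.6 CPM, so it was not among the abundant RNAs and lay in the range where few intervals were narrow. Of 17 carbonic anhydrase entries 5 were tested, all 5 with a mean below 100 CPM, and the other 12 had 0 reads in the 7 libraries. The main test called 1 of the 5, ca15b, beside 0.00797% of all tested genes. The list was chosen with earlier results known and holds the only called gene, so nothing about the family is read from this count. Of the 5, 2 had a fitted difference above 0, beside 5992 of all 12549 tested genes. The median log2 fold change of the 5 was -1.56.

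The block added vat1, si:ch211-241j12.3 and trim36, each higher in B. Levels of vat1 (ENSDARG00000056481), which encodes a vesicle amine transport protein, were 230.5, 495 and 299.5 CPM in B of oocytes 1, 2 and 4, against 86.7, 100.1, 145 and 189.6 CPM in A of oocytes 1, 2, 3 and 4. Each B library exceeded each A library, and the fitted log2 difference was 1.39 ± 0.31. In edgeR the adjusted p was 0.153 without the block and 0.00465 with it, and in DESeq2 it was 0.000330. Its mean continued at 291 CPM in C and 337 CPM in D and was highest in E, at 690 CPM.

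Transcripts of si:ch211-241j12.3 (ENSDARG00000043963), a gene known by a clone name, were at 864, 1059 and 1129 CPM in B, against 410, 452, 511 and 463 CPM in A. No A library reached the B libraries, and the log2 ratios in oocytes 1, 2 and 4 were 1.08, 1.23 and 1.29. B exceeded A by 1.15 ± 0.28 on the log2 scale, and edgeR gave adjusted p of 0.439 without the block and 0.00465 with it. Without a block, DESeq2 gave 0.00432, limma-voom 0.0243 and edgeR with no filter on low counts 0.0187 as adjusted p. Its profile was not vegetal, since means were 850 CPM in C, 817 CPM in D and 568 CPM in E, below the 1017 ± 137 CPM of B.

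The vegetal RNA trim36 (ENSDARG00000062794) encodes a ubiquitin ligase needed for dorsal axis formation in Xenopus. It was at 42.6, 88.8 and 31.9 CPM in B, against 13.1, 48.0, 5.78 and 22.4 CPM in A. The groups overlapped, because A of oocyte 2 exceeded B of oocytes 1 and 4, yet B was higher inside each oocyte, with log2 ratios of 1.69, 0.89 and 0.51. The edgeR adjusted p was 0.890 without the block and 0.00465 with it. None of these 3 was called with edgeR fitted on A and B of oocytes 1, 2 and 4 alone, where the adjusted p was 0.240 for vat1, 0.0894 for si:ch211-241j12.3 and 1.000 for trim36. Without segment B of oocyte 2 the log2 fold change of trim36 was 0.74 instead of 1.28.

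**Figure D3:**
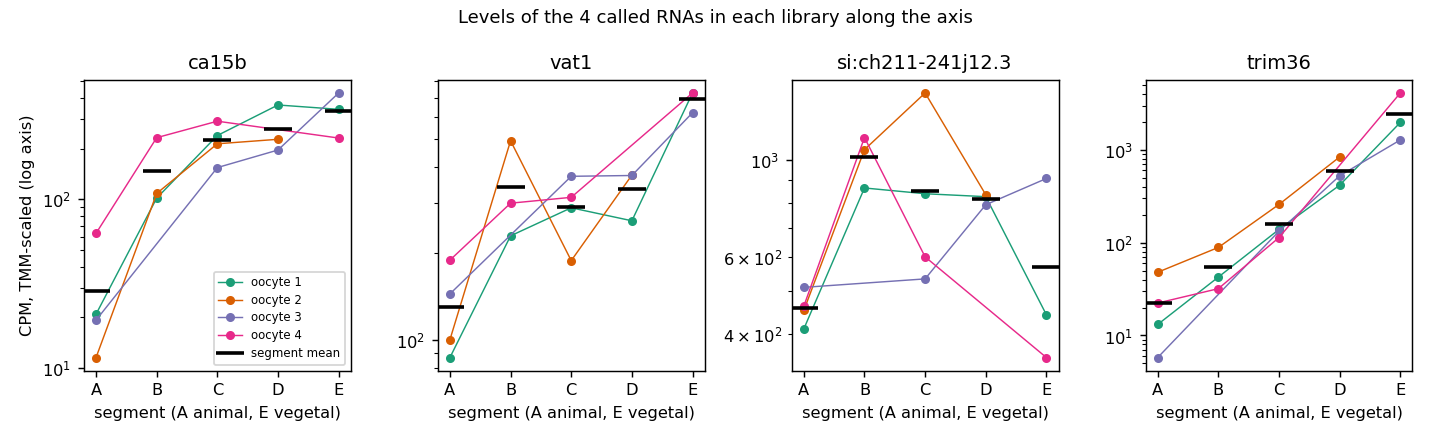
CPM on a log axis in every library of the 5 segments, A being animal and E vegetal, for the 4 RNAs called between B and A with the oocyte as a block; lines join the libraries of an oocyte and bars mark segment means. ca15b averages 28.7 CPM in A and 147 CPM in B and from 224 to 333 CPM in C to E, while si:ch211-241j12.3 has its highest mean, 1017 CPM, in B.

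Pairing inside oocytes gave a further view of the abundant RNAs. Of the 2645, 316 (11.9%) were higher in B in each of oocytes 1, 2 and 4, and 360 (13.6%) were lower in each. Ratios of 3 oocytes can share a sign by chance, so these 316 and 360 RNAs are not read as differences. A difference beyond 2-fold in all 3 oocytes was rare, with 4 RNAs higher (0.151%) and 1 lower (0.0378%). At 1.5-fold the numbers were 16 higher and 24 lower. No abundant RNA differed beyond 4-fold in all 3 oocytes. Over all 12549 tested genes, scarce ones included, the shares were 9.74% higher and 9.6% lower in each oocyte, and 2.04% higher and 1.72% lower beyond 2-fold in each. With 3 pairs the smallest 2-sided p of an exact permutation test is 0.25, so the paired counts carry no test. Under the authors' factors 32 RNAs were beyond 2-fold higher in B and 0 lower.

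The 4 RNAs beyond 2-fold higher in each oocyte were niban2, si:ch211-241j12.3, wasf3 and got1. Levels of niban2 (ENSDARG00000008026), of the Niban family of stress-response proteins, were 129, 189 and 126 CPM in B, against 57.2, 86.0, 88.3 and 43.7 CPM in A. No B library overlapped the A libraries, and the 95% interval of the log2 fold change ran from 0.18 to 2.03 (edgeR adjusted p of 0.890). The wasf3 RNA, for a WAVE protein that activates branched actin assembly, was at 151, 167 and 89.0 CPM in B, against 59.5, 80.9, 227 and 22.9 CPM in A. Segment A of oocyte 3, which has no B library to pair with, exceeded all 3 B libraries, and the fitted log2 fold change was 0.47 ± 0.49 (edgeR adjusted p of 1). The got1 RNA, for the cytosolic aspartate aminotransferase, was at 279, 168 and 205 CPM in B, against 116, 66.2, 184 and 99.4 CPM in A, again with oocyte 3 highest in A. The RNA beyond 2-fold lower in each oocyte was sulf2a, for an extracellular enzyme that trims heparan sulfate. It was at 44.7, 60.8 and 116 CPM in B, against 134, 123, 67.5 and 255 CPM in A. Here A of oocyte 3 was the lowest of its group and fell within the range of B.

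The 12 named RNAs with the largest values of the smallest paired ratio were vat1, niban2, wasf3, got1, fam135a, ddx19a, cyfip1, eif5b, topaz1, nelfb, ice2 and pou6f1. The choice rests on these ratios, so their shared direction is no result. Of the 12, edgeR with TMM called 0 without the block and 1, vat1, with it. With the block and the authors' factors it called niban2, wasf3, got1, fam135a and ddx19a as well, at adjusted p of 0.0212 to 0.0438. The choice by paired ratios favours such calls, so they lend the 12 no support. That setting moved the median over all tested genes to 0.48 on the log2 scale. It called 1.01% of all tested genes, 126 of its 127 calls being higher in B. In 6 of the 12 every B library lay above every A library, which the choice favours, so nothing is read from it beside the 2.68% of all abundant genes and 2.22% of all tested genes. Among these, ddx19a, for an RNA helicase of messenger RNA export, was at 200.4, 235 and 199.5 CPM in B, against 119, 139, 56.2 and 95.4 CPM in A. The eif5b RNA, for the factor that joins ribosomal subunits at initiation, was at 128, 141 and 169 CPM in B, against 60.8, 78.2, 41.4 and 104 CPM in A. The nelfb RNA, for a subunit of the negative elongation factor of RNA polymerase II, was at 167, 147 and 131 CPM in B, against 70.2, 91.4, 87.4 and 28.1 CPM in A. The fam135a RNA was at 230, 231 and 213 CPM in B, against 98.5, 128, 176 and 122 CPM in A, and its mean was 615 CPM in E. For cyfip1, a subunit of the complex that holds WAVE proteins inactive, the 3 log2 ratios were 0.71, 0.88 and 0.71, and B and A overlapped. The groups also overlapped for topaz1, a germ cell gene of the testis in mammals, with 128 to 286 CPM in B against 65.4 to 334 CPM in A, for ice2, of the little elongation complex, with 104 to 207 CPM in B against 53.5 to 109 CPM in A, and for pou6f1, a POU transcription factor gene, with 101 to 165 CPM in B against 62.8 to 110 CPM in A. The smallest log2 ratio was 0.66 in vat1, the last gene taken, and 0.65 in lrrc1, the first not taken.

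The 12 named RNAs at the other end, lower in B in each oocyte, were sulf2a, laptm4a, aimp2, asap2, patj, aurka, xpr1b, arih2, dop1b, mtss1, myo6 and tex10, and edgeR with TMM called 0 of them with or without the block. DESeq2 called aurka, asap2 and aimp2. In 6 of the 12 every B library lay below every A library, which the choice favours too, so nothing is read from it beside the 2.12% of all abundant genes and 1.94% of all tested genes. The aurka RNA (ENSDARG00000012485), for the kinase Aurora A that matures centrosomes and builds the spindle, had the highest mean level of the 12. It was at 169, 240 and 220 CPM in B, against 511, 510, 528 and 397 CPM in A. The gap between the lowest A library and the highest B library exceeded the SD of either group (36.3 CPM in B and 59.9 CPM in A). The choice by paired ratios favours such a gap, so it is description only. On the log2 scale B minus A was -1.21 ± 0.34. The edgeR adjusted p was 0.890 without the block and 0.786 with it, while DESeq2 gave an adjusted p of 0.000292. Means of aurka were 170 CPM in C, 99.1 CPM in D and 116 CPM in E.

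The aimp2 RNA, for a scaffold of the aminoacyl-tRNA synthetase complex, was at 74.4, 109.6 and 154 CPM in B, against 228, 229, 176 and 295 CPM in A (adjusted p of 0.890 in edgeR and 0.0345 in DESeq2). The asap2 RNA, for a GTPase-activating protein of Arf, was at 41.0, 51.5 and 64.2 CPM in B, against 135, 99.0, 215 and 121 CPM in A, or -1.45 ± 0.51 on the log2 scale (adjusted p of 0.890 in edgeR and 0.00590 in DESeq2). Levels of xpr1b, for a phosphate exporter, were 77.3, 48.7 and 69.9 CPM in B, against 136, 97.2, 175 and 149 CPM in A. The dop1b RNA was at 108, 128 and 116 CPM in B, against 191, 217, 151 and 262 CPM in A, and tex10 at 77.2 to 122 CPM in B, against 133 to 205 CPM in A. For aimp2, asap2, xpr1b, dop1b and tex10 no B library reached the A libraries. They overlapped for laptm4a, of a lysosomal membrane protein, at 57.9 to 93.0 CPM in B and 86.0 to 198 CPM in A, for the ubiquitin ligase RNA arih2, at 121 to 190 CPM in B and 156 to 390 CPM in A, and for mtss1, of an actin-binding membrane protein, at 87.1 to 236 CPM in B and 196 to 401 CPM in A. The groups overlapped for myo6, the gene of a pointed-end actin motor, with log2 ratios of -0.94, -0.93 and -0.75, and for patj, of the Crumbs polarity complex, with -1.04, -0.87 and -1.18. The ratio nearest 0 was -0.75 in tex10, the last gene taken, and -0.66 in zp2.5, the first not taken once clone names were passed over. The symbols niban2, ddx19a and myo6 are each shared by another identifier, so reads of close copies may be split between entries.

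**Figure D4:**
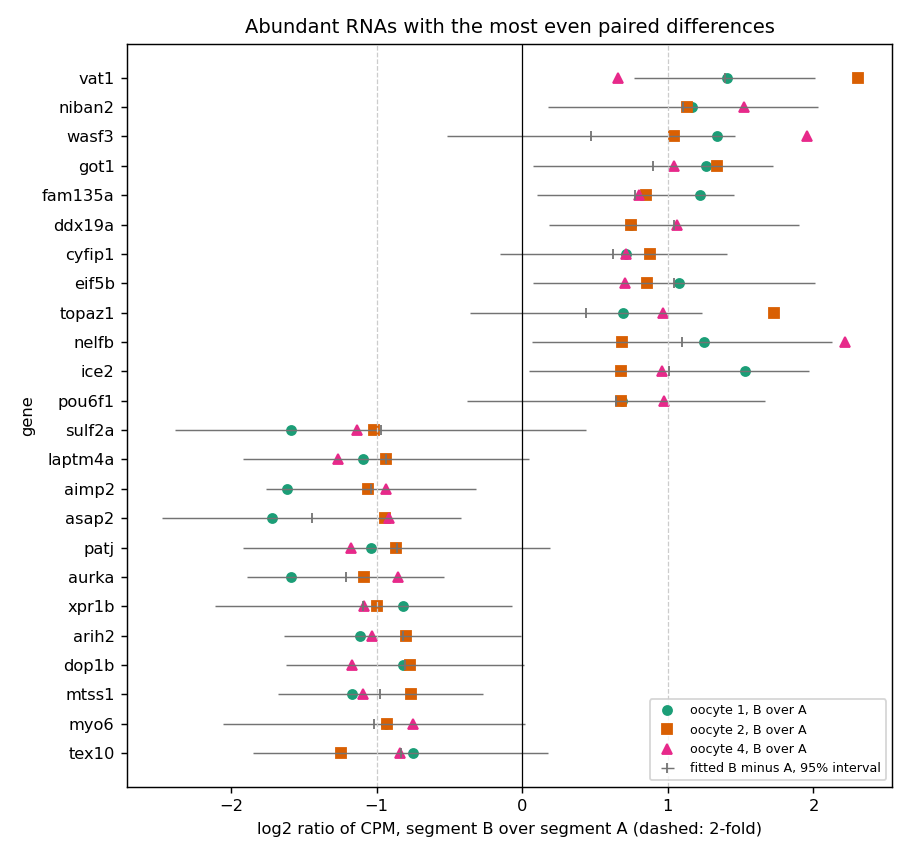
Log2 ratio of CPM, segment B over segment A, inside oocytes 1, 2 and 4 for the 24 named abundant RNAs with the largest values of the smallest paired ratio; the tick and bar give the fitted log2 fold change of B against A over all libraries with its 95% interval, and dashed lines mark 2-fold. Points lie on 1 side of 0 by the choice of genes. The interval excludes 0 for 8 of the 12 higher and 6 of the 12 lower RNAs before adjustment for the number of genes. The choice favours this too, so nothing is read from it beside 90 of all 2645 abundant genes.

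Of 4 animal RNAs, pou5f3 and cpeb1b were lower and ccnb1 and gdf3 higher in B inside each paired oocyte. Without or with the block edgeR called none of them, beside 0.00797% and 0.0319% of all tested genes. The pou5f3 RNA (ENSDARG00000044774), for a transcription factor that opens the embryonic genome, was at 2468, 2166 and 1857 CPM in B, against 2710, 2905, 2794 and 2616 CPM in A. Every B library was below every A library, and the fitted log2 difference was -0.35 ± 0.22. The adjusted p was 0.943 in edgeR and 0.00240 in limma-voom. The cpeb1b RNA, listed as cpeb1 (ENSDARG00000008454), was at 1037, 851 and 919 CPM in B, against 1172, 1093, 916 and 1295 CPM in A. The cyclin B1 RNA ccnb1 was at 920.5, 1045 and 1123 CPM in B, against 846, 944, 923 and 811 CPM in A, higher in B inside each oocyte by log2 ratios of 0.12, 0.15 and 0.47. The gdf3 RNA, for the Nodal partner Vg1, was at 673, 886 and 707 CPM in B, against 586, 493, 646 and 642 CPM in A, without overlap. For all 4 animal RNAs the 95% interval lay within 2-fold. So it did for 87.3% of all genes at 300 to 1000 CPM and 91.2% at 1000 CPM or more, the levels of these 4. The ccnb1 mean was 881 ± 62.8 CPM in A, 1029 ± 102 CPM in B and 519 CPM in C.

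Of 6 tested vegetal RNAs, edgeR called 0 without the block and 1, trim36, with it, beside 0.00797% and 0.0319% of all tested genes. That call was given above and is counted here again, so nothing about the list is read from it. Their median log2 fold change was 0.85, beside -0.03 for all tested genes. Only 1 of the 6, celf1, averaged 100 CPM or more, and its log2 fold change was 0.13. Levels of hwa in B of oocyte 1 and of dazl in B of oocyte 2 were below 3 reads, so nothing is read from this median. The hwa RNA, whose protein starts dorsal axis formation, was at 0.244, 0.355 and 4.83 CPM in B, against 1.16, 0.519, 0 and 0.362 CPM in A. The dazl RNA, for an RNA-binding protein of germ cells, was at 3.66, 0.0444 and 17.2 CPM in B, against 3.26, 1.45, 1.87 and 0.777 CPM in A. The vrtn RNA was at 12.7, 37.0 and 99.1 CPM in B, against 24.9, 81.2, 23.1 and 19.3 CPM in A. In hwa, dazl and vrtn the library of oocyte 4 was the highest of B. Without that library the log2 fold change was -0.59 for hwa, -0.10 for dazl and -0.57 for vrtn. The sybu RNA, for a microtubule linker, was at 75.2, 48.5 and 23.9 CPM in B, against 130, 71.4, 33.1 and 18.7 CPM in A. The celf1 RNA, for an RNA-binding protein, averaged 116 ± 42.7 CPM in B and 106 ± 38.0 CPM in A.

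Of 11 tested germ plasm and Balbiani body RNAs, edgeR called 1, ca15b, with or without the block, beside 0.0319% and 0.00797% of all tested genes. This is the call given above counted again, so nothing about the list is read from it. The median log2 fold change was -0.02. The dnd1 RNA, for a protein that shields germ cell RNAs, was at 122, 190 and 149 CPM in B, against 19.1, 89.8, 99.4 and 110 CPM in A, without overlap. Its log2 fold change of 0.95 ± 0.37 had an edgeR adjusted p of 0.890, and 0.0117 when the authors' factors and the block were combined. The nanos3 RNA was at 13.2, 21.5 and 21.9 CPM in B, against 4.31, 5.56, 2.63 and 13.9 CPM in A, higher in B inside each oocyte. The buc RNA, for the Balbiani body organizer Bucky ball, was at 1703, 1818 and 1329 CPM in B, against 1559, 1825, 1605 and 1558 CPM in A. The 95% interval of its log2 fold change ran from -0.45 to 0.41. The tdrd6 RNA was at 228, 139 and 299 CPM in B, against 201, 157, 279 and 358 CPM in A, with overlap. Levels of macf1a (190 ± 41.3 CPM in B, 206 ± 40.0 CPM in A) differed by less than their SD. The piwil2 RNA, for a Piwi protein, was at 177, 84.7 and 348 CPM in B, against 194, 119, 172 and 352 CPM in A, with oocyte 4 highest in both segments. The weakly read piwil1 was at 24.0, 0 and 19.9 CPM in B, against 3.47, 63.5, 57.4 and 28.3 CPM in A. For ddx4, the Vasa helicase gene, A of oocyte 2 held 2.86 CPM and the other 6 libraries 34.5 to 98.6 CPM. The means of tdrd7a were 238 ± 45.9 CPM in B and 170 ± 56.9 CPM in A, and those of rgs14a were 16.6 ± 27.5 CPM in B and 16.9 ± 14.2 CPM in A.

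Other gene groups of the stored maternal program had no called member in the main test. Of 16 tested maternal transcription factors, 0 were called by edgeR, and 4 were lower and 1 was higher in B in all 3 oocytes. All tested genes gave 9.6% lower and 9.74% higher. Abundant genes, which made up 11 of the 16, gave 13.6% lower and 11.9% higher. The same shares stand beside the list counts that follow. The median log2 fold change was -0.15. The foxh1 RNA, for the transcription factor of Nodal signalling, was at 740, 703 and 669.5 CPM in B, against 1291, 1028, 818 and 982 CPM in A. No B library reached the A libraries, and the mean was 339 CPM in C, 97.8 CPM in D and 40.9 CPM in E. It was named for the lowest fitted change among the abundant members of its list. That choice favours a gap between B and A, so the gap is description only. The log2 fold change of foxh1 between B and A was -0.55 ± 0.36 (edgeR adjusted p of 0.983). The tcf7l1b RNA, for a repressor of Wnt targets, averaged 207 ± 66.8 CPM in B and 169 ± 87.2 CPM in A. Of 32 tested genes that control translation of stored RNAs, 22 of them abundant, 8 were lower and 2 higher in B in all 3 oocytes. Their median was -0.24. Within this group, igf2bp1, for an RNA-binding protein, was at 87.0, 41.9 and 87.7 CPM in B, against 127, 164, 61.1 and 243 CPM in A. The deadenylase scaffold RNA cnot1 was at 743, 766 and 766 CPM in B, against 346, 721, 525 and 735 CPM in A. The pabpc1a RNA, for a poly(A)-binding protein, averaged 1469 ± 283 CPM in B and 1743 ± 426 CPM in A.

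Among 33 tested regulators of maturation and the cell cycle, 22 of them abundant, 8 were lower and 2 higher in B in all 3 oocytes. The median log2 fold change of this group was -0.11. Of its named members aurka was lower in B, as given above. The ccna1 RNA, for cyclin A1, was at 503, 574 and 601 CPM in B, against 374, 310.3, 385 and 268 CPM in A, without overlap. It was named for the highest fitted change among the abundant members, which favours such a gap, so this too is description only. B minus A was 0.74 ± 0.27 on the log2 scale, and adjusted p was 0.890 in edgeR, 0.0314 in DESeq2 and 0.0226 in edgeR under the authors' factors. The phosphatase RNA cdc25b averaged 1430 ± 325 CPM in B and 1218 ± 142 CPM in A. Of 18 maternal-effect genes of the first divisions, 15 of them abundant, 4 were lower and 1 higher in all 3 oocytes, with a median of -0.11. The RNA of the spindle protein tpx2 averaged 1570 ± 212 CPM in B and 1478 ± 265 CPM in A, and that of mid1ip1l, whose product carries germ plasm with the cytoskeleton, 608 ± 68.5 CPM in B and 498 ± 81.0 CPM in A. The oocyte marker mos, for a kinase of meiotic maturation, averaged 168 ± 73.8 CPM in B and 208 ± 82.3 CPM in A. The kinesin RNA kif20a was at 62.0, 112 and 123 CPM in B, against 111, 178, 130 and 182 CPM in A.

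The remaining groups likewise held 0 calls by edgeR, beside 0.00797% of all tested genes. Of 21 tested zona pellucida genes, which encode the egg coat, 1 was lower and 0 were higher in B in all 3 oocytes, with a median log2 fold change of -0.33. That member, zp2.5, was at 106, 189 and 132 CPM in B, against 171, 299, 243 and 246 CPM in A, and zp3b averaged 125 ± 38.6 CPM in B and 144 ± 41.5 CPM in A. Zona pellucida genes include near-identical copies, so their counts are uncertain. Of 79 tested cytosolic ribosomal protein genes, counted with the ribosome-bound scaffold rack1, 35 had a fitted difference above 0. Over all tested genes it was 5992 of 12549, which also stands beside such counts in the lists that follow. The median of the ribosomal protein genes was -0.08, and rpl8 was at 41.5, 62.9 and 92.8 CPM in B, against 99.1, 96.0, 114 and 263 CPM in A. In the same group rpl35 averaged 144 ± 55.0 CPM in B and 91.1 ± 18.9 CPM in A, and rack1 474 ± 124 CPM in B and 558 ± 141 CPM in A. Of 87 tested nuclear genes of oxidative phosphorylation, assembly factors included, 40 had one above 0, with a median of -0.13, and atp5f1a averaged 774 ± 157 CPM in B and 846 ± 226 CPM in A. The values of atp5mc1 were 242 ± 63.8 CPM in B and 164 ± 58.3 CPM in A, and those of atp5f1d 122 ± 67.3 CPM in B and 155 ± 34.1 CPM in A. Of 24 genes of germinal vesicle and nucleolar proteins, 12 had one above 0, and the median was -0.06. In that group ncl, for nucleolin, averaged 812 ± 63.7 CPM in B and 713 ± 123 CPM in A, and ran 191 ± 24.4 CPM in B and 278 ± 101 CPM in A. The importin RNA kpna7 was at 277, 179 and 336 CPM in B, against 219, 231, 188 and 162 CPM in A. The nuclear noncoding RNA malat1 was at 7.93, 48.1 and 22.2 CPM in B, against 33.8, 9.55, 7.71 and 0 CPM in A, and only 3 of 6 such genes were tested. All 13 mitochondrially encoded entries had 0 reads in these libraries. The reason was not tested, so these counts are not read as absence of mitochondrial RNA. The follicle cell marker cyp11a1 was at 218, 112 and 115 CPM in B, against 234, 69.3, 59.5 and 146 CPM in A, and its symbol is shared by another identifier.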

How the data were processed

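RNA was sequenced from segments of sliced zebrafish oocytes, and the libraries of segments B and A were assigned to segment and oocyte from the titles. The labels' protocols give every library the same RNA input, so levels are relative within a segment. The authors deposited raw counts per library, whole numbers of reads for 32520 Ensembl genes, 92 spike-ins and 5 summary entries of the counter. Trimmomatic, STAR 2.5.3a, HTSeq, DESeq2 and the build GRCz11 are named in the submitters' processing notes, which give no role for each. A second deposited table holds normalized signal, the counts of a library over a factor of its own. Multiplying by that factor gave whole reads, within 0.01 of the deposited count, for 100% of values, so the count test on recovered reads is the main test itself and called 1 gene. How the factor was set is not given in the sources used here.

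Spike-ins and summary entries were left out of library sizes and tests. Reads outside genes were 5.05% to 6.10% of all entries in these 7 libraries, and reads with several alignments, which were not assigned to a gene, were 6.88% to 14.2%. Values of near-identical, overlapping or antisense genes are therefore uncertain, and use of strand in counting is not given. Symbols came from a table of identifiers for 29201 genes (89.8%), and symbols in capitals were written in lower case. For a listed gene with no such symbol, a RefSeq synonym (GRCz12tu) that matched 1 identifier was used.

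Genes were kept by filterByExpr of edgeR 4.0.16 (minimum count of 10, by segment), which left 12549 genes with 99.8% of reads. The test was edgeR's 2-sided quasi-likelihood test with TMM over all 17 libraries and Benjamini-Hochberg adjustment, in R 4.3.3, checked on simulated counts. Of 100 genes at 100 CPM or more with a simulated log2 change of 1 between B and A, it called 8. Of 100 with a change of 2 it called 69, beside 6 false calls. SE was the absolute log2 fold change over the square root of F. Paired ratios used log2 CPM with a prior count of 2. Alternatives were the oocyte block, other scalings and filters, DESeq2 1.42.0, limma-voom 3.58.1, fewer libraries, and each library left out. A number marks 1 oocyte in the labels, so libraries of 1 number are paired. Deviations from the segment means correlated at 0.08, 0.17 and 0.18 for B and A of oocytes 1, 2 and 4, and at -0.15 to 0.08 for different oocytes. Nothing in the labels says whether oocytes came from separate females, so p-values hold for these oocytes only. The main fit took all 17 libraries as independent, although several are slices of the same oocyte. Its error was pooled over segments A to E, so its p-values do not measure the spread between oocytes in A and B alone. The fit with the oocyte block removed differences between oocytes and used the spread left inside them. Oocyte 1, nearly free of spike-ins, holds 1 library per segment and allows no test of its own.

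Named genes were those called with or without the block, the 12 abundant RNAs in each direction with the largest values of the smallest paired ratio, the tested animal, vegetal and germ plasm RNAs, and the extremes of the other lists; clone names were passed over in the paired choice. The members and lists were chosen with earlier results of these data known.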

Additional observations from a re-analysis of the deposited data

Results flagged for a closer look

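The 4 values of segment A were examined for 74 measures, and in 7 of them 1 library stood apart from the rest, where chance marks about 1 in 20. Segment B, with 3 libraries, could not be searched this way. The library of oocyte 4 was low for aurka, at 397 CPM against 510 to 528 CPM, and had 9956 genes with a read against 10579 to 10637. It was high for rpl8, at 263 CPM against 96.0 to 114 CPM, and for atp5f1d, at 206 CPM against 134 to 145 CPM. Oocyte 1 was high for rack1, at 769 CPM against 483 to 492 CPM, and for rpl35, at 119 CPM against 81.0 to 82.1 CPM. Oocyte 2 was high for vrtn, at 81.2 CPM against 19.3 to 24.9 CPM.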

How the results depend on the processing

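The 1 call between B and A became 4 with the replicate block (oocyte), 10 with the authors' factors, 428 with DESeq2, 9 with limma-voom and 6 with no filter on low counts. It became 0 on the 7 libraries of A and B, 0 on A and B of oocytes 1, 2 and 4 with the replicate block, and 0 without oocyte 1, where 281, 302 and 336 genes had an unadjusted p under 0.05. The block together with the authors' factors, an alternative chosen after seeing the data, gave 127 calls. Leaving out 1 library each gave 0 to 3 calls: 0 without A of oocyte 1, 2 or 3 (468, 487 and 465 genes at an unadjusted p under 0.05), 2 without A of oocyte 4 or B of oocyte 2, and 3 without B of oocyte 1 or B of oocyte 4. Calls among listed genes, 1 in the main test, were 2 with the block, 3 with the authors' factors, 15 with DESeq2, 2 with limma-voom, 3 without the filter, 0 with the 3 smaller sets of libraries, 7 with block and factors, and 0 to 2 with 1 library left out.

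The 1310 abundant RNAs with an interval within 2-fold became 481 with the authors' factors, 554 with these and the block, 789 without oocyte 1, 635 at a minimum of 300 CPM and 74 at a bound of 1.5-fold, and 883 to 1151 with 1 library left out. The 5 RNAs beyond 2-fold in all 3 oocytes became 32 with the authors' factors, 81 at a minimum of 30 CPM, 1 at 300 CPM and 40 at a bound of 1.5-fold, and 31 to 51 with 1 oocyte left out, where only 2 oocytes have to pass. The median correlation inside oocytes, 0.774, was 0.641 at a minimum of 30 CPM, 0.811 at 300 CPM and 0.713 over all tested genes.

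Of 71 named genes, 16 changed direction in some alternative, none of them called in the main test. Values under the authors' factors are relative to the median of all genes there, and ranges are over leaving out 1 library each. Log2 fold changes were -0.051 for dazl with limma-voom (range -0.10 to 2.55), and for vrtn -0.024 in the paired oocytes alone with the block (range -0.57 to 1.14). For celf1 they were -0.0083 with the block, -0.094 with limma-voom and -0.27 without oocyte 1 (range -0.079 to 0.41). For buc they were 0.029 with the authors' factors and 0.047 with these and the block (range -0.10 to 0.11). For rgs14a they were 0.0028 with library sizes alone and 0.59 without oocyte 1 (range -4.57 to 0.66). For piwil2 they were 0.0013 with the authors' factors and 0.013 without oocyte 1 (range -0.68 to 0.33). Without oocyte 1 cdc25b was at -0.043 and rack1 at 0.069. The ranges were -0.82 to 0.26 for sybu, -0.59 to 2.62 for hwa, -0.44 to 0.084 for tdrd6, -0.31 to 0.0020 for macf1a, -0.41 to 0.030 for zp3b, -0.017 to 0.17 for tpx2, -0.30 to 0.070 for atp5f1a and -0.18 to 0.70 for cyp11a1. The causes were not tested. Depth and spread limit what can be said below 100 CPM.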
